A study of Rattus norvegicus with 4 samples.

Results

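miR-466b and miR-466c are microRNAs of the Sfmbt2 locus on rat chromosome 17, and they were followed across 4 small RNA libraries of extracellular vesicles (EVs), the membrane-bound particles that cells release. All names that start with miR-466b or miR-466c were taken: 5 of the 762 microRNA names in the deposited table of all 4 libraries (rno-miR-466b-5p, rno-miR-466b-3p, rno-miR-466b-2-3p, rno-miR-466c-5p and rno-miR-466c-3p, written below without the rat prefix rno), and 1 of the 594 names in a second deposited table that holds PC12 alone (miR-466b-3p). RMT1, a rat line labelled as a breast cancer cell, gave 2 EV libraries. PC12, a rat pheochromocytoma line labelled as a catecholamine cell, gave 1 library titled EVu and 1 titled EVd, and the labels do not say what u and d stand for. No genotype, drug or time is given for any library, RMT1 vesicles were collected by ultracentrifugation, and nothing states that the RMT1 pair came from separate cultures or that both lines were prepared together, so cell line and preparation cannot be told apart. The family was selected on counts in RMT1 and 0 counts in PC12 in the table of all 4 libraries. miR-466b-2-3p, taken by its name, had 1 count in EVu there. The contrast between the lines is therefore described here without a test.

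A microRNA is cut from a hairpin precursor whose 2 arms, 5p and 3p, each can give a mature strand of about the same length, and the strand that is kept finds its target messenger RNAs mainly through its seed, bases 2 to 8. In mouse, miR-466, miR-467, miR-669 and miR-297 form a large block of related microRNAs inside an intron of Sfmbt2, an imprinted gene of the Polycomb group, the chromatin repressors that keep developmental genes silent. That mouse block is known from embryonic stem cells and from trophoblast, and its loss impairs the placenta. Many of its members carry long runs of alternating bases, which makes them resemble each other.

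The rat mature sequences are shown because the runs they share bear on how well the names can be told apart in counting. They are from RefSeq, build GRCr8, where all lie on the minus strand of chromosome 17, and capitals mark the seed:
miR-466b-5p: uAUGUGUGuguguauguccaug
miR-466c-5p: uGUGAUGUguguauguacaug
miR-466b-3p: aUACAUACacacacacauacac
miR-466b-2-3p: aUAUACAUacacacauacaca
miR-466c-3p: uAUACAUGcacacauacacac

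The 5 names have 5 different seeds, and none of the other names with a RefSeq sequence (686 of 762 names have one) shares a seed with them, so this is a set held together by locus and by sequence composition and not by a common seed. The 5p strands are rich in U and G, with 17 of 22 bases in miR-466b-5p and 16 of 21 in miR-466c-5p. The 3p strands are rich in A and C, with 19 of 22 bases in miR-466b-3p, 17 of 21 in miR-466b-2-3p and 16 of 21 in miR-466c-3p. The U and G share of miR-466b-5p was 77.3%, against a median of 52.4% over the 686 sequences. The 2 5p strands have an unbroken run of 11 bases in common, and miR-466b-3p and miR-466b-2-3p one of 13 bases. miR-466b-2-3p and miR-466c-3p match at 19 of 21 bases in their best ungapped alignment. The 3p names are therefore near copies of each other, and how the counting split reads between them is not given in the sources used here, so their separate values are uncertain. Outside the family, miR-466d of the same gene has a run of 13 bases in common with miR-466b-5p and of 11 with miR-466c-5p. With the 679 sequenced names other than the family, miR-466d and miR-297 the longest run in common was 8 or 9 bases.

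In GRCr8 miR-466b-5p is encoded by 2 hairpins, Mir466b-1 (mature strand at chr17:72945547-72945568) and Mir466b-2 (chr17:72942513-72942534), so its counts cannot be assigned to either. miR-466b-3p comes from the first (chr17:72945512-72945533) and miR-466b-2-3p from the second (chr17:72942475-72942495). miR-466c-5p and miR-466c-3p come from Mir466c, at chr17:72927649-72927669 and chr17:72927610-72927630. These hairpins and that of miR-466d, 4 of 4 in all, lie within the span of Sfmbt2 and on its strand. RefSeq's gene table used here gives no exons, so whether they are intronic was not examined. The PC12 table places miR-466b-3p at chr17:73503768-73503789 and again at chr17:73754827-73754848, minus strand, in a build that it does not name.

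The table of all 4 libraries held 799224 and 716940 counts for RMT1 EV 1 and 2, 436840 for PC12 EVu and 338233 for EVd, recovered from the authors' log2 values. A count of 0 is placed at a floor of 3 counts, which per library is 0.000687% of EVu and 0.000887% of EVd. The exact 95% interval of a 0 reaches somewhat higher, to 0.000844% and 0.00109%. The cell types were checked with microRNAs known as their markers. The 4 neuroendocrine names summed to 27053 CPM (counts scaled to a common library total) in EVu and 24264 in EVd against 1485 and 1576 in RMT1, where miR-375-3p and miR-9a-5p were at 0. The fourth of them, miR-124-3p, had 1 count in EVd and 0 in the other libraries, so it does not separate the lines. The 7 epithelial names summed to 12109 and 11710 CPM in RMT1 against 213 and 201 in PC12, and all 7 were counted in every library. Intervals below are exact Clopper-Pearson 95% intervals and cover counting error only.

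The 5p strands were plentiful in RMT1 vesicles and were not counted in PC12 vesicles in the table of all 4 libraries. miR-466c-5p had 819 and 673 counts in RMT1 EV 1 and 2, and 0 in both EVu and EVd. Its level was 1025 CPM (95% interval 956 to 1097) in RMT1 EV 1 and 939 CPM (869 to 1012) in RMT1 EV 2, so the RMT1 libraries agree within counting error. miR-466b-5p had 337 and 352 counts in RMT1 and 0 in both PC12 libraries, that is 422 CPM (378 to 469) and 491 CPM (441 to 545). For both 5p strands the 2 RMT1 libraries lay above the PC12 libraries and the groups did not overlap, as for 81 of 440 counted names (18.4%). This is the contrast that chose the names. Their log2 ratios of RMT1 EV 2 over EV 1 were -0.13 for miR-466c-5p and 0.22 for miR-466b-5p, close to the median absolute difference of 0.16 over the 177 names with a mean of at least 10 RMT1 counts.

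The 3p strands were near the limit of detection everywhere in that table. miR-466c-3p had 17 and 4 counts in RMT1 and 0 in both PC12 libraries. Its RMT1 levels were 21.3 CPM (12.4 to 34.1) and 5.58 CPM (1.52 to 14.3), and 1 library held most of it. miR-466b-3p had 6 and 5 counts in RMT1 and 0 in both PC12 libraries of that table. miR-466b-2-3p was counted 4 and 3 times in RMT1, once in EVu and not in EVd. All 3 were a small fraction of their 5p partners in both RMT1 libraries. Summed over the 5 names, the family took 0.148% (0.140% to 0.157%) of RMT1 EV 1 and 0.145% (0.136% to 0.154%) of RMT1 EV 2, a mean of 0.146% ± 0.00239 (SD, n = 2), against 1 count in EVu and 0 in EVd. Of the family's counts, 97.7% and 98.8% in the 2 RMT1 libraries were 5p.

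**Figure D1:**
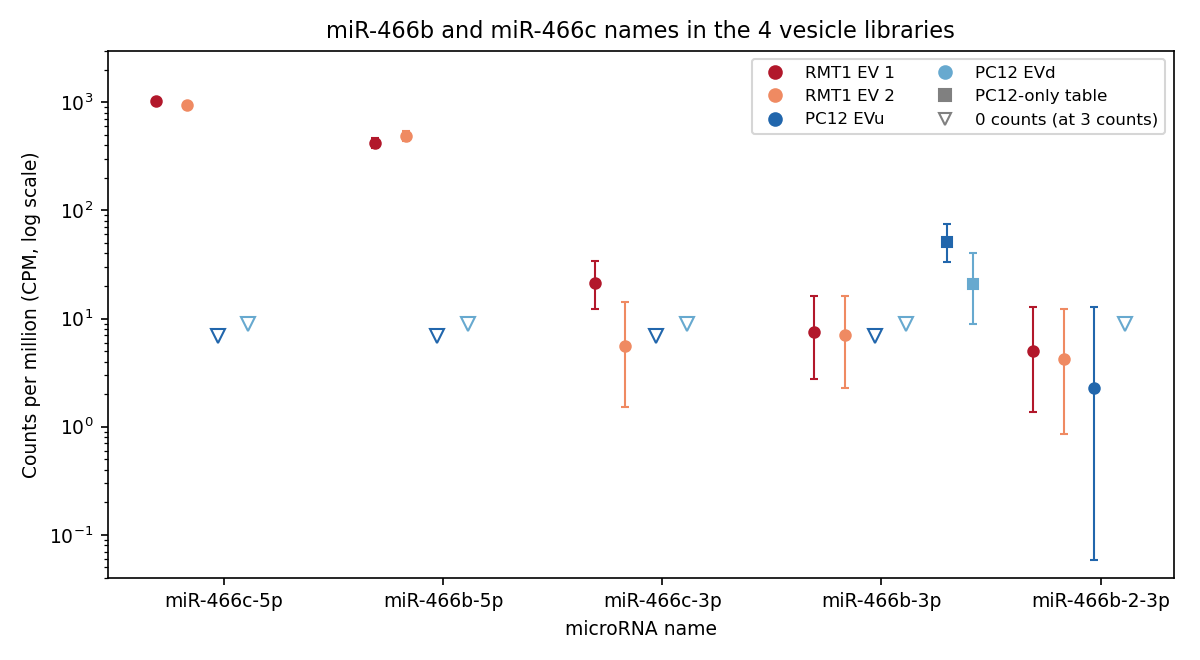
CPM (log axis) of each of the 5 names in the 4 libraries, with exact 95% counting intervals as bars (1 library per point); circles are from the table of all 4 libraries and squares from the table of PC12 alone, and open triangles mark libraries with 0 counts, placed at the level of 3 counts. In RMT1 miR-466c-5p sits at 1025 and 939 CPM and miR-466b-5p at 422 and 491 CPM, with PC12 at 0, while for miR-466b-3p the PC12 squares, at 50.8 and 20.7 CPM, lie above the RMT1 circles at 7.51 and 6.97 CPM.

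Among the 299 names counted in RMT1 vesicles, miR-466c-5p took place 45 by mean CPM and miR-466b-5p place 61. miR-466c-5p, at 982 ± 60.8 CPM (SD, n = 2), stood between miR-27a-3p, which restrains fat cell formation, at 1013 ± 13.4 CPM, and miR-322-5p, which slows the cell cycle, at 949 ± 57.9 CPM (SD, n = 2 each). These neighbours differed from it by less than its own spread. The next above, miR-15b-5p, at 1097 ± 46.4 CPM, and the next below, miR-676, at 801.8 ± 27.96 CPM (SD, n = 2 each), lay farther away than its SD. miR-466b-5p, at 456 ± 49.0 CPM (SD, n = 2), stood between miR-532-5p at 461 ± 27.0 and miR-25-3p at 450 ± 80.2 CPM, and did not differ from them beyond the spread. miR-29b-3p, which represses collagen genes, at 494 ± 53.5 CPM, and miR-361-5p at 416 ± 39.9 CPM (SD, n = 2 each) were its next neighbours, both within 1 SD of it. The 3p names came far behind, at place 176 for miR-466c-3p (13.4 ± 11.1 CPM), 193 for miR-466b-3p (7.24 ± 0.377 CPM) and 208 for miR-466b-2-3p (4.59 ± 0.580 CPM). miR-466b-3p shared its place with miR-147 and miR-664-3p, with 6 and 5 counts each.

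Within a library the names can be compared without any scaling. miR-466c-5p outnumbered miR-466b-5p by 2.43 (95% counting interval 2.14 to 2.77) in RMT1 EV 1 and by 1.91 (1.68 to 2.18) in RMT1 EV 2, a mean ratio of 2.17 ± 0.367 (SD, n = 2), although 2 hairpins encode miR-466b-5p and 1 encodes miR-466c-5p. The 2 intervals overlap narrowly. These 5p strands match at 15 of 21 bases in their best ungapped alignment. How reads were split between them is not given, and the intervals do not cover it. For miR-466b the 5p strand outnumbered both 3p names together by 33.7 (18.1 to 70.9) from 337 against 10 counts, and by 44.0 (22.1 to 102.7) from 352 against 8. For miR-466c the 5p strand outnumbered the 3p strand by 48.2 (29.9 to 83.1) in RMT1 EV 1 and by 168 (65.4 to 619) in RMT1 EV 2, where the second value rests on 4 counts of miR-466c-3p.

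Such an uneven use of the arms was common in these vesicles. Of 69 hairpins with both arms named and at least 100 counts in each RMT1 library, 46 had more 5p than 3p. The more abundant arm held a median of 99.3% of the counts. It held 97.4% for miR-466b and 98.7% for miR-466c (mean of 2 libraries), and 49 and 38 hairpins were more uneven than these. The strong preference of both for 5p is thus within the range of the other hairpins.

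**Figure D2:**
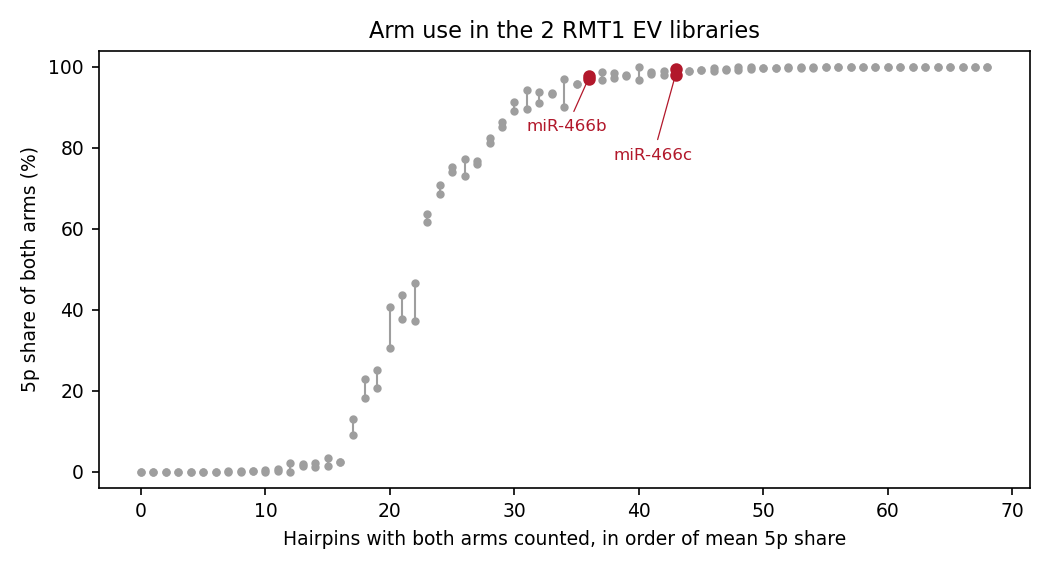
Share of 5p counts (%) among both arms of each of 69 hairpins in the 2 RMT1 EV libraries (1 point per library, joined by a line), in order of the mean share. miR-466b and miR-466c, in red, lie at 97.4% and 98.7%, on the upper plateau with many other hairpins.

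Set against PC12, the 5p strands gave large lower bounds. With the 0 counts of PC12 placed at a floor of 3 counts over both libraries, miR-466c-5p was at least 254-fold higher in RMT1 and miR-466b-5p at least 117-fold higher, by library totals. With the floor of 3 counts set per library these bounds were 127-fold and 58.7-fold. At the pooled RMT1 share, EVu and EVd would have held 430 and 333 counts of miR-466c-5p and 199 and 154 of miR-466b-5p. For the 3p names these numbers are small. miR-466b-3p at its RMT1 share would have had 3.17 and 2.45 counts in EVu and EVd, and miR-466c-3p 6.05 and 4.68. The bound of miR-466b-3p was 1.87-fold, and 0.937-fold with the floor set per library, so that table does not bound its direction. The bound of miR-466c-3p was 3.58-fold, falling to 1.44-fold without RMT1 EV 1 and rising to 5.50-fold without RMT1 EV 2. miR-466b-2-3p, with 7 against 1 counts, had a ratio of pooled shares of 3.58 (0.460 to 161), which includes no difference.

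The size of these folds depends on the scaling. In the authors' deposited table the fold of RMT1 over PC12 was 764 for miR-466b-5p and 1646 for miR-466c-5p, given as log2 values of -9.58 and -10.68 for PC12 minus RMT1. Those folds set PC12 at a log2 value of 0, which is less than the value of 1 count (1.34 in EVu and 1.79 in EVd on the linear scale), and the authors' factors raise RMT1. With a floor of 3 counts in the authors' scaling the bounds were 328-fold for miR-466b-5p and 700.3-fold for miR-466c-5p. The let-7 family and miR-98 took 69.3% and 68.9% of RMT1 counts against 23.0% and 21.6% of EVu and EVd. Over the 278 names tested, the median log2 difference of RMT1 minus PC12 was -1.12 in the authors' scaling and -2.54 by library totals.

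All 5 names were above both PC12 libraries in both RMT1 libraries by CPM in that table. Since this contrast chose the names, the count of 5 is no finding. Of 241 names counted in both RMT1 libraries, 16 (6.64%) had 0 counts in both PC12 libraries, and 4 of these 16 were miR-466b-5p, miR-466c-5p, miR-466b-3p and miR-466c-3p. Among 66 names with a mean of at least 300 RMT1 counts, 2 (3.03%) had 0 in both PC12 libraries, and these were miR-466b-5p and miR-466c-5p. That limit was chosen after the values were seen, and the same contrast chose both names, so this count is no finding either. miR-222-5p, at 0 in both PC12 libraries with 356 and 209 RMT1 counts, fell below the limit.

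**Figure D3:**
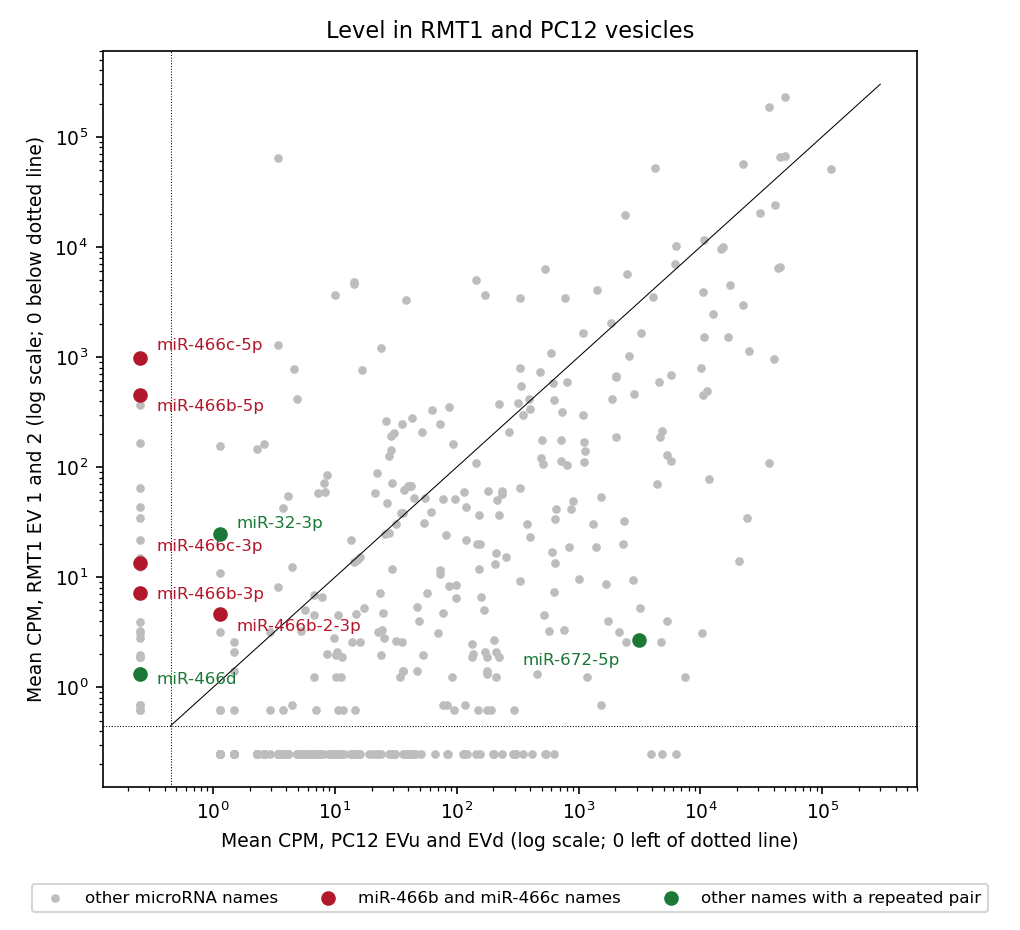
Mean CPM of every counted name in the 2 RMT1 EV libraries (vertical) against the mean of PC12 EVu and EVd (horizontal), both on log axes, in the table of all 4 libraries; names at 0 are drawn beyond the dotted lines and the diagonal marks equal levels. miR-466c-5p and miR-466b-5p are the uppermost points at 0 in PC12, and miR-672-5p, a name with a similar run of bases, lies on the opposite side.

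The 0 counts of PC12 are uncertain, because the table of PC12 alone holds other counts for the same libraries. There miR-466b-3p had 26 counts in EVu and 8 in EVd, against 0 and 0 in the table of all 4 libraries. It reached there 50.8 CPM (33.2 to 74.4) in EVu and 20.7 CPM (8.93 to 40.7) in EVd, both above its 7.51 and 6.97 CPM in RMT1. The tables were made separately, so a ratio across them carries their differences. Taken at face value, miR-466b-3p was then 5.21-fold lower in RMT1 (2.58 to 11.4), the reverse of the order of its counts within the table of all 4 libraries. The other 4 names are not listed in the PC12 table, in which every listed name had at least 10 counts in 1 library or more. Being unlisted does not bound a level. miR-103-3p had 4148 and 4008 counts in EVu and EVd of the table of all 4 libraries and is unlisted too.

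Such a disagreement was frequent among the 520 names in both tables, of which the joint table of 4 libraries gives 180 no count in EVu and 199 none in EVd. Of 193 names in both tables with 13 to 52 counts in EVu of the PC12 table, within a fold of 2 of miR-466b-3p, 70 (36.3%) had no count in the table of all 4 libraries. Of 157 names with 4 to 16 counts in EVd, 86 (54.8%) were at 0. Names with many counts were at 0 as well: of those with at least 100 counts in the PC12 table, 22 of 180 (12.2%) in EVu and 27 of 164 (16.5%) in EVd. The highest were miR-3556b, with 1557 and 1089 counts, and miR-3596a, with 1629 and 940, both at 0 in all 4 libraries of the joint table. All 22 of EVu, and 24 of the 27 of EVd, had no RMT1 count either. Of the 16 names at 0 in PC12 but counted in both RMT1 libraries, 6 were listed with counts in the PC12 table, among them miR-222-5p with 96 and 106 and miR-31a-3p with 78 and 67. The 0 counts of miR-466b-5p and miR-466c-5p have no such contrary count, but neither name is listed in the PC12 table, so they could not be compared there. RMT1 has no second table here.

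**Figure D4:**
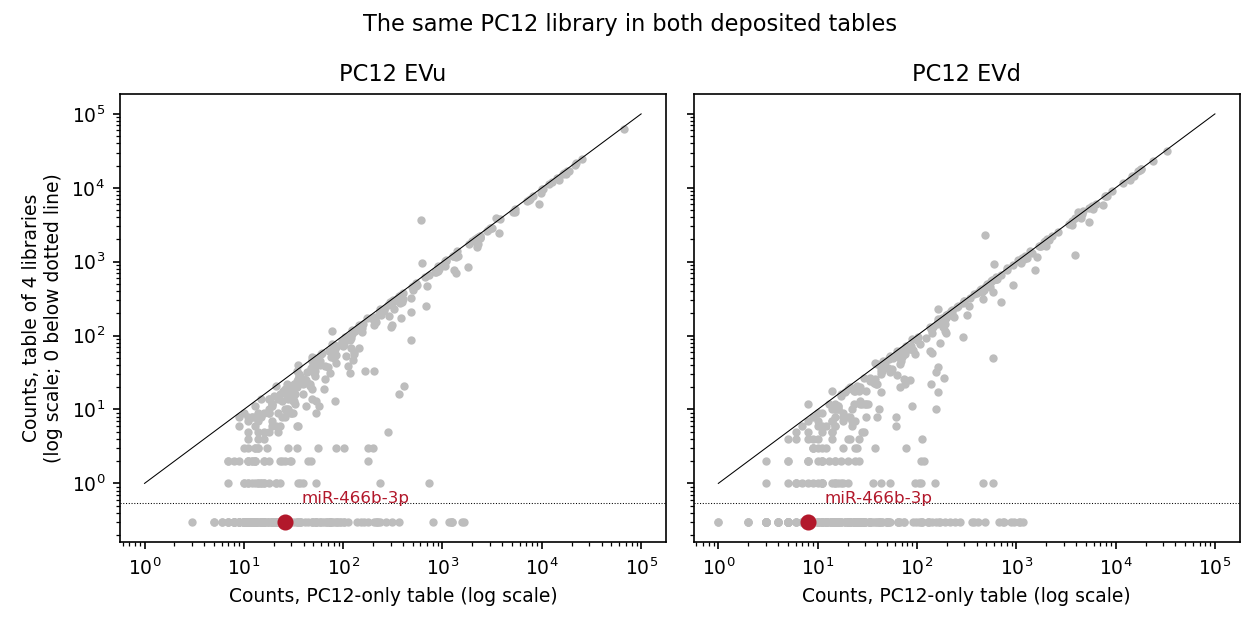
Counts of each shared name in EVu (left) and EVd (right) in the table of PC12 alone (horizontal) and in the table of all 4 libraries (vertical), on log axes, with names at 0 drawn below the dotted line and the diagonal marking equal counts. miR-466b-3p, in red, had 26 and 8 counts in the first and 0 in the second, in a band of many names at 0.

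Between the PC12 libraries, miR-466b-3p was lower in EVd. Its log2 ratio of EVd over EVu was -1.26 with a pseudocount of 1 CPM, and in the authors' deposited table it was -1.32. The 95% counting interval of the log2 ratio of shares, without a pseudocount, was -2.65 to -0.11. By shares this is 2.46-fold lower (1.08 to 6.27), a difference that has no replicate check. Of 472 microRNA names of the PC12 table with a mean of at least 10 counts, piRNA names left out, 33 (6.99%) were at least 2-fold lower in EVd. Among the 200 of them with a mean of 10 to 34 counts, near that of miR-466b-3p, 11 (5.50%) were. Blood and serum microRNAs had lower sums in EVd too. In the PC12 table the 6 listed ones, all counted in both libraries, summed to 1698 CPM in EVu and 168 in EVd. In the table of all 4 libraries their sums were 1449 CPM in EVu, 85.7 in EVd, where miR-144-3p was at 0, and 62.6 and 57.2 in RMT1. Their part in the value of miR-466b-3p was not tested.

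The rest of the mouse Sfmbt2 block is thinly represented. The table of all 4 libraries names miR-466d and miR-297 and no miR-467 or miR-669. miR-466d had 1 count in each RMT1 library and 0 in PC12, which is below the floor. miR-297, which RefSeq places on chromosome 10 in the rat, had 0 counts in all 4 libraries. Neither entered the test. miR-466d lies in the same gene and has 13 bases in a row in common with miR-466b-5p, yet miR-466b-5p had 337 and 352 counts in the same RMT1 libraries. No other name of the PC12 table lies within 50 kb of either locus that it gives for miR-466b-3p.

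Names with a repeated pair of bases differed in level, but they are few, and any bearing of such runs on level was not tested. miR-466b-5p and miR-466b-3p among them were chosen on the contrast between the lines. The pair UG repeated 4 times without a break, or AC or CA repeated 4 times, was found in the mature strands of 5 of 686 names (0.729%). They are miR-466b-5p and miR-466b-3p, and miR-466d, miR-32-3p and miR-672-5p. These are shown because their runs are alike while their levels are not, and capitals mark the longest alternating run of each:
miR-466b-5p: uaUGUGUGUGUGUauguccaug
miR-466b-3p: auacauACACACACACAuacac
miR-466d: aUGUGUGUGUauguucuuuugu
miR-32-3p: gcaauuuaGUGUGUGUGauauu
miR-672-5p: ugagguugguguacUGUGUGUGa

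miR-672-5p was counted 1 and 3 times in RMT1, 1391 times in EVu and 1046 times in EVd, with nearly the same PC12 counts, 1392 and 1049, in the PC12 table. It was lower in RMT1 by -8.93 ± 1.09 on the log2 scale (SE; adjusted p = 0.0440 by limma, with 2 libraries against 1 of EVu and 1 of EVd), a call lost when names of low value were kept in the fit (adjusted p = 0.0580). Over the alternatives its adjusted p ran from 7.70e-26 with DESeq2 to 0.0580. miR-32-3p was counted 28 and 10 times in RMT1, once in EVu and not in EVd. It was higher by 5.003 ± 0.661 in RMT1 (SE; adjusted p = 0.0483 by limma), and was no longer called by library totals (adjusted p = 0.0779), with names of low value kept (0.0646) or with 1 added to the linear values (0.0517), the lowest being 0.000842 with edgeR. The PC12 table gives it 11 and 27 counts, or 21.5 and 69.8 CPM, against 35.0 and 13.9 CPM in RMT1. There EVd lay above both RMT1 libraries and EVu between them, so that source does not show miR-32-3p higher in RMT1. Of the 2 names with such a run outside the family that entered the main limma fit, 1 was called higher and 1 lower. Both calls were lost under some alternatives. Over all names in the same fit, 92 of 278 (33.1%) were higher and 103 (37.1%) lower. By library totals 64 were higher and 145 lower. The spread in this fit comes from the RMT1 pair alone, with 1 residual degree of freedom. Of the 5 names of the family 3 passed the filter on low values, a mean of 10 on the linear scale; miR-466b-3p and miR-466b-2-3p did not.

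The names whose profile over the 4 libraries was nearest to that of the summed family were found among 174 names with a mean of at least 10 RMT1 counts. The measure is the summed absolute difference of each library's share of a name's CPM, where 0 means the same profile. miR-28-3p came first at 0.00863, with 1057 and 914 RMT1 counts against 3 and 0 in PC12. miR-449a-5p, of the p53-linked miR-34 family, followed at 0.0136 with 629 and 542 against 4 and 0 counts. miR-200c-3p, a repressor of Zeb1 and so of the change to a mesenchymal state, stood at 0.0146 with 3872 and 3480 against 6 and 5. miR-200b-5p, at 0.0161, had 52 and 47 counts in RMT1 and 0 in both PC12 libraries, and miR-34a-5p, a p53 target, was at 0.0216 with 2644 and 2331 against 22 and 9. Such likeness over 4 libraries of 2 cell lines says that these names were also abundant in RMT1 and scarce in PC12. Each of these but miR-200b-5p had counts in the PC12 table too, from 11 in EVu for miR-449a-5p to 39 for miR-34a-5p.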

How the data were processed

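MicroRNAs of vesicles were counted in 4 libraries of 3 groups: RMT1 EV (2), PC12 EVu (1) and PC12 EVd (1). Per the labels' protocols, vesicle RNA was purified on miRNeasy columns after QIAzol lysis, and libraries were built with QIAseq reagents. The submitters' processing notes name mm10, which is of mouse, although the names are of rat. Which aligner and counter were used, and whether they counted molecules, is not given in the sources used here. The PC12 table holds raw counts and log2 normalized values, per the file headers. The other deposited table holds log2 values scaled by the authors across the 4 libraries jointly, and 0 for names without a count. Made linear, these were whole multiples, within 0.0604, of the smallest value of each library, so that value was taken as 1 count and counts were recovered; this is an inference from the values.

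Shares, CPM, ratios of pooled shares and intervals were computed from those counts (Python 3.11.15, scipy 1.17.1). limma 3.58.1 with a mean-variance trend was fitted to the 278 names with a mean linear value of at least 10, 3 groups, RMT1 minus the mean of EVu and EVd, with Benjamini-Hochberg adjustment at 0.05; edgeR 4.0.16 and DESeq2 1.42.0 on recovered counts were alternatives. limma, on TMM-scaled input, and edgeR were run on simulated counts. There fewer names were changed than were called here, equally up and down, so the simulation does not vouch for the fits on these data. The p-values reflect the spread between the RMT1 libraries, which may be technical. The names and lists were chosen with earlier results of these data known. Named are all miR-466b and miR-466c names, members of the fixed lists, the 5 nearest profiles and the 2 neighbours on each side in RMT1 level; for the 3p names those neighbours are left out except for names tied in level. Sequences are from RefSeq, matched by name.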

Additional observations from a re-analysis of the deposited data

How the results depend on the processing

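The family's share of RMT1 counts, 0.146%, was 0.473% of the counts outside let-7 and miR-98, and 0.145% to 0.148% when either RMT1 library was left out. The lower bounds of miR-466b-5p and miR-466c-5p were 117-fold and 254-fold; they were 328-fold and 700.3-fold in the authors' scaling, 294.8-fold and 638-fold by library totals without let-7 and miR-98, 66.2-fold and 143-fold against EVu alone, 51.2-fold and 111-fold against EVd alone, and 58.7-fold and 127-fold with a floor of 3 counts per library. Leaving out 1 RMT1 library gave 109-fold to 127-fold for miR-466b-5p and 243-fold to 265-fold for miR-466c-5p. The ratio of RMT1 over PC12 of miR-466b-3p was a lower bound of 1.87 in the table of all 4 libraries, 1.06 against EVu alone, 0.818 against EVd alone and 0.937 with a floor of 3 counts per library, so that its direction is not bounded there. It was 0.192 with PC12 counts from the PC12 table, which is the opposite order; the cause was not tested. Leaving out 1 RMT1 library, the ratio of miR-466c-5p to miR-466b-5p was 1.91 to 2.43, that of the miR-466b arms 33.7 to 44.0 and that of the miR-466c arms 48.2 to 168. With 2 RMT1 libraries these ratios, like the range of the family's share, are the values of each library by itself and add no further check. The log2 ratio of miR-466b-3p in EVd over EVu stayed within its counting interval with the other pseudocounts and in the authors' scaling, and could not be computed in the table of all 4 libraries. limma called 192 of 440 names lower in RMT1 with no filter on low values, against 103 of 278 with it. It called 88 higher without the filter and 92 with it. When names at 0 in both RMT1 libraries, which show no spread there, were left out, it called 94 of 243 lower and 99 higher. What changed these counts was not tested. The log2(value + 1) scale was chosen after seeing the data. Without an RMT1 library limma has no residual degrees of freedom and was not run. No paired analysis was possible because the PC12 groups have 1 library each, whose titles carry no replicate number. Depth limits the precision of the 3p names, with 7 to 21 pooled RMT1 counts.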

Other observations

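The cluster of miR-290 to miR-295, which in mouse marks embryonic stem cells, where the Sfmbt2 block is also expressed, was set beside the family as a list of 11 names. None of the 11 had a count in either RMT1 library. In PC12, miR-293-5p had 18 and 12 counts in EVu and EVd of the table of all 4 libraries and 25 and 13 when PC12 was tabulated alone. miR-291b had 12 and 3 counts in that second source and 0 in the first. The floor for a 0 is again 3 counts, and these names have no second RMT1 table.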
